A study of Drosophila melanogaster with 2 samples.

Results

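The genes described here are 8 regulators of mesoderm and muscle, Mef2, twi, nau, lmd, bin, htl, zfh1 and how, taken by name from 13945 protein-coding genes annotated on the 6 chromosome arms. They were set against the binding of Nf-YA, a subunit of the trimeric CCAAT-binding factor NF-Y. Chromatin immunoprecipitation with sequencing (ChIP-seq) had been done with an anti-GFP antibody on whole Drosophila melanogaster embryos of strain Nf-YA-GFP, transgenic flies that express an Nf-YA-eGFP fusion protein. The 2 biological replicates formed 1 group, aged 0 to 24 h, from the same recorded fly line, and the antibody reads the tagged protein, not untagged Nf-YA. An untagged or treated group was not analysed here. Whole embryos pool all tissues and stages, so the values do not say in which cells a site was occupied. The deposited lists give peaks with a summit and a peak signal, the authors' value on a scale the files do not state, and the read depth behind them is unknown. A list thresholded by reproducibility from both replicates pooled held 3354 peaks, and every summit of it that lay in one of the genes or within 10 kb of it was taken.

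The mesoderm of the fly forms on the ventral side of the embryo, where Twist, the basic helix-loop-helix protein of twi, starts the programme. The fibroblast growth factor receptor of htl lets the cells spread over the ectoderm, and later regulators divide them into visceral muscle, heart, fat body and body wall muscle. Mef2, a MADS-box factor, is then needed for muscle differentiation in all muscle types. NF-Y contacts the pentamer CCAAT, which on the opposite strand reads ATTGG.

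The 18 summits in reach of these genes included 5 with a CCAAT pentamer within 50 bp. Of these, 4 are printed below as examples of the sequence that NF-Y is known to contact, together with the single summit at bin, which lacks it. The remaining CCAAT summit, at twi, is not printed, though its pooled signal of 293 was the highest of the 5. Each line holds 101 bases centred on a summit, read from the RefSeq sequence of the dm6 assembly on the plus strand, with CCAAT or its reverse complement in capitals.
how, intron (chr3R:22053947-22054047): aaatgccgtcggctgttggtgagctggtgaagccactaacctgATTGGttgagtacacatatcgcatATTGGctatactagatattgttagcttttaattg
how, upstream (chr3R:22039595-22039695): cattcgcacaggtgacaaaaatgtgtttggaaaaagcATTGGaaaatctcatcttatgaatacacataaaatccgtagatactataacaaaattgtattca
zfh1, intron (chr3R:30781734-30781834): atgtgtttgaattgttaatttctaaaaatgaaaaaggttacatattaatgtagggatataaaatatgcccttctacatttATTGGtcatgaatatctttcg
nau, upstream (chr3R:23722920-23723020): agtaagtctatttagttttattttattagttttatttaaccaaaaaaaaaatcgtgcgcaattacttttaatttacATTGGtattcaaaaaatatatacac
bin, upstream (chr3L:6988978-6989078): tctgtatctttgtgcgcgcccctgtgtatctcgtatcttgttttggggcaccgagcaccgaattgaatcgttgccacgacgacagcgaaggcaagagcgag

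The intronic how sequence held the pentamer at 2 places, centred 5 and 19 bp from the summit, and the first was embedded in the full NF-Y consensus (a pair of purines, CCAAT, then G or C, then a purine). It was the 1 summit of the 18 with the full consensus, against 84 of all 3354 summits (2.50%). In the upstream how sequence the pentamer was centred 11 bp from the summit. In the zfh1 and nau sequences it was centred 32 and 28 bp away. The other CCAAT summit lay at twi, 26 bp from the pentamer. CCAAT was thus found at 27.8% of the members' summits, against 19.5% of all summits, and at 5 of the 36 windows (13.9%) placed 500 bp to either side of the members' summits, against 19.0% of such windows at all summits. With 18 summits these shares are a description of letters, and no test was made over the members.

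Nf-YA summits stood around 6 of the 8 genes, but at a start site in 1 of them. A summit lay in the gene body or within 10 kb at 6 genes (75.0%), where 51.6% of all protein-coding genes had one. A summit lay within 500 bp of an own start site at twi alone (12.5%), and 12.5% of all protein-coding genes had one there. nau, zfh1 and how had 4 summits each, Mef2 had 3, twi had 2 and bin had 1, while lmd and htl had none in the pooled list. These counts take overlapping peaks separately, as do the shares of all protein-coding genes given next. With overlapping peaks merged, zfh1 and how had 3 each, while nau kept 4. As many as 4 summits were found at 3.85% of protein-coding genes, and as many as 3 at 9.75%. The median was 2.5 summits for the 8 genes and 1 for all protein-coding genes. The 8 genes were also long, with a median length of 15523 bp against 2166 bp. Per length, their bodies and flanks held 51.2 summits per Mb, with overlapping peaks counted separately. The 6 arms held 25.1 per Mb, but these include sequence far from genes, and the value around all protein-coding genes was not computed. By gene the density ran from 0 at lmd and htl and 24.1 per Mb at twi to 157 per Mb at nau.

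**Figure D1:**
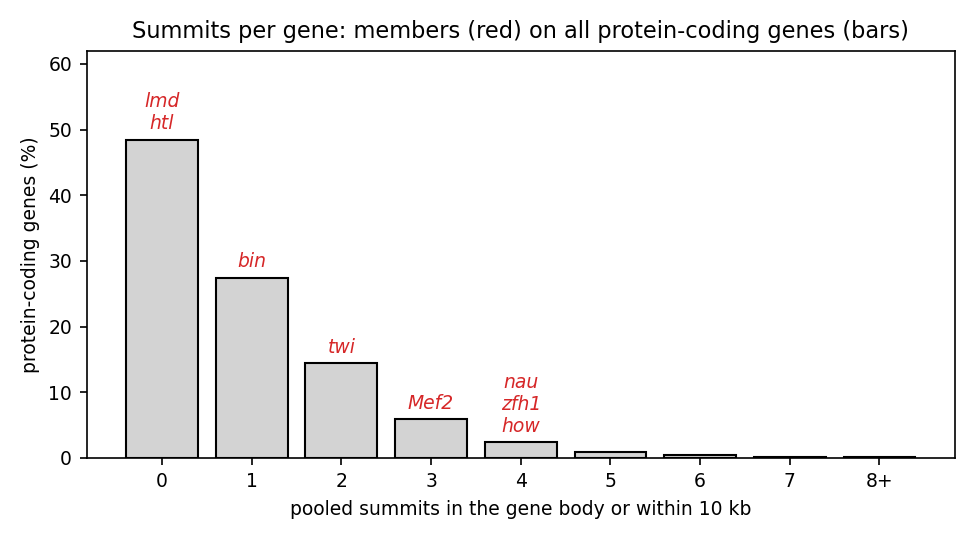
Share of all protein-coding genes (bars, vertical axis in percent) by the number of pooled summits in the gene body or within 10 kb (horizontal axis), with the 8 genes written in red above their bar. lmd and htl stand with the 48.4% of genes that had 0 summits, and nau, zfh1 and how with the 2.34% that had 4. Overlapping peaks are counted separately, and with them merged zfh1 and how had 3 each.

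Most of these summits lay away from the promoters of the genes. Of the 18, 8 were upstream of the gene, 7 in introns, 2 in 5' untranslated exons and 1 downstream, and none was in coding sequence. The median distance to the nearest start site of the gene was 3578 bp. Within 500 bp of any start site lay 5 summits, of which 1 was at a start site of the listed gene and 4 were at start sites of neighbouring genes, so the gene such a summit serves cannot be told from its position. Over the whole list 1561 of 3354 summits lay within 500 bp of a start site.

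**Figure D2:**
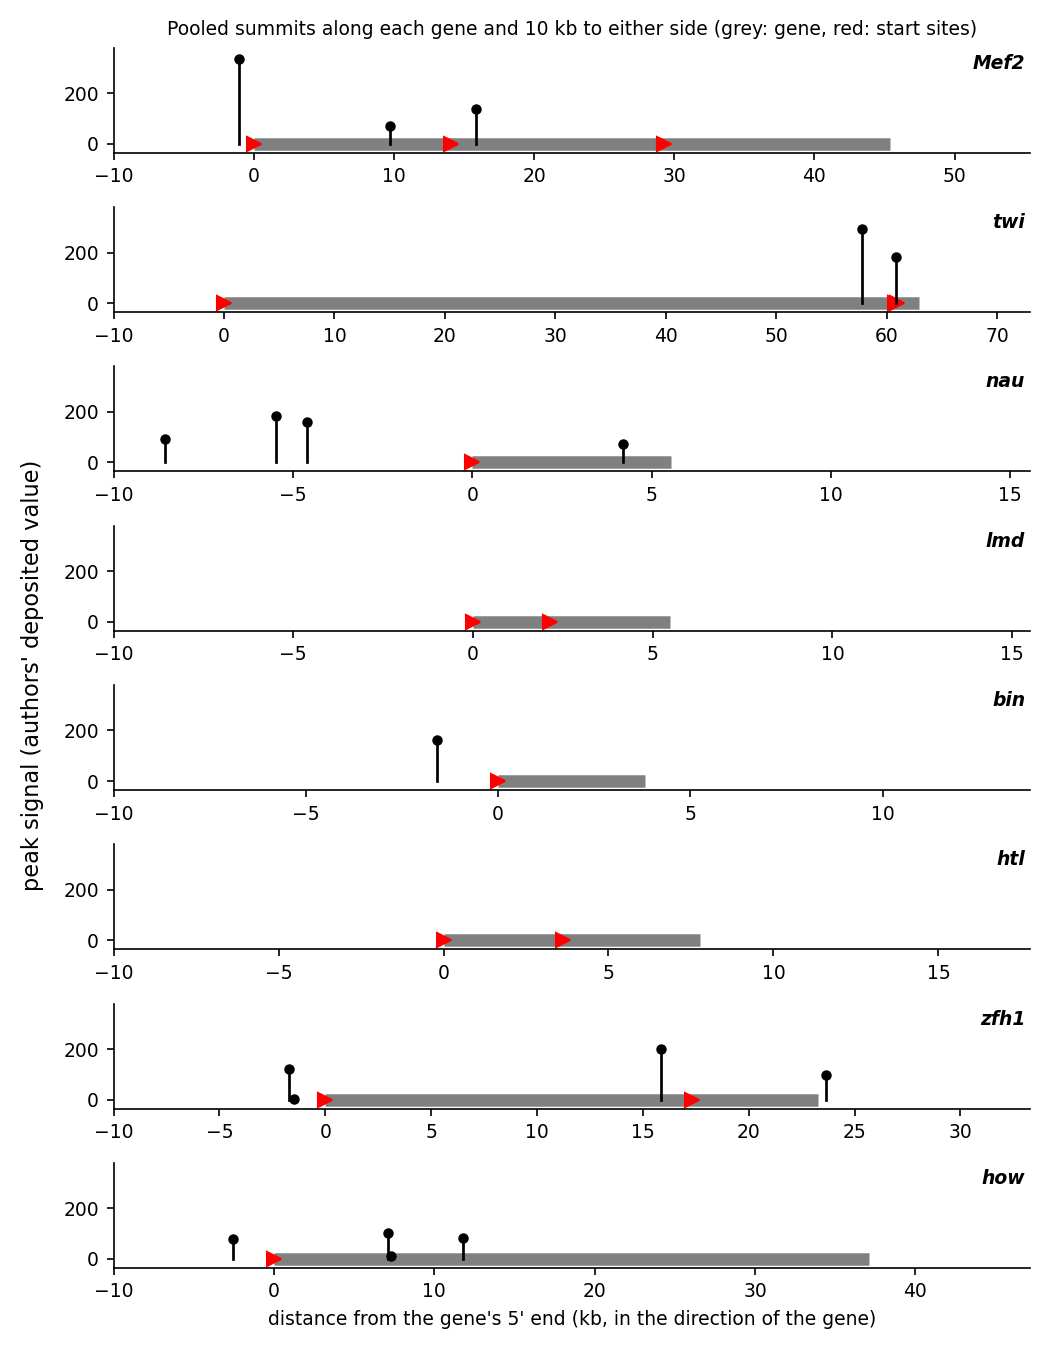
Each panel shows 1 gene in its own direction, with the distance from its 5' end in kb on the horizontal axis (scales differ between panels) and the peak signal of the pooled list on the vertical axis. Grey bars are gene bodies, red arrowheads annotated start sites and black stems summits, and the twi stem at its downstream start sites is the one that meets a start site within 500 bp.

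At twi (FBgn0003900, 2R:22985374-23048325, plus strand), both summits were in the downstream part of the annotated gene. The start-site summit, at position 23046239, had a signal of 183 in the pooled list, 84.1 in replicate 1 and 96.7 in replicate 2. It was 83 bp upstream of one start site, at 23046322, and 131 bp downstream of another, at 23046108, in a 5' untranslated exon. The ranked entries at this position stood at rank 448 of 96038 in replicate 1 and at rank 570 of 116026 in replicate 2. A start-site entry as tall was found at 2.26% of protein-coding genes in replicate 1 and 3.11% in replicate 2. The other summit, at 23043156, was 2952 bp upstream of the start site at 23046108, inside an intron of a long twi transcript that begins at 22985374. Its signal was higher, at 293 pooled, 157 in replicate 1 and 140 in replicate 2. It lay 213 bp upstream of the start site of CG42741, a gene on the opposite strand within the span of twi.

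zfh1 encodes a zinc finger and homeodomain protein of the mesoderm that is known as a transcriptional repressor. Its locus (FBgn0004606, 3R:30765926-30789202, plus strand) had 4 summits, of which the tallest was intronic. This one, at 30781784, was 1474 bp upstream of the second start site, with a signal of 199 pooled, 77.5 in replicate 1 and 117 in replicate 2, and it is the zfh1 sequence printed above. It also lay in an intron of the antisense RNA gene asRNA:CR45189. A summit at 30764222, 1704 bp upstream of the first start site, had 120 pooled, 56.7 in replicate 1 and 63.5 in replicate 2. A summit at 30789580, past the 3' end of the gene, had 97.4 pooled, 52.4 in replicate 1 and 45.3 in replicate 2, and it overlapped a thresholded peak in neither replicate. The summit at 30764425 had a pooled signal of 4.52 and belonged to a peak that overlaps the one at 30764222. Both matched the same single entry in each replicate, so they are 1 region counted as 2 summits.

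bin encodes the FoxF forkhead factor of visceral mesoderm. The gene (FBgn0045759, 3L:6990622-6994447, plus strand) had 1 summit, at 6989028, which was 1594 bp upstream of its start site and in no annotated gene. Its signal was 161 pooled, 89.7 in replicate 1 and 74.1 in replicate 2. Replicate 1 was thus the higher here, where 12 of 16 separate regions were higher in replicate 2.

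Mef2 (FBgn0011656, 2R:9913496-9958858, minus strand) had the tallest of the 18 summits. It stood at 9959898, 1040 bp upstream of the first Mef2 start site, with a signal of 336 pooled, 139 in replicate 1 and 203 in replicate 2, and 4.05% of protein-coding genes had a summit as tall in reach. This summit was nearer to other promoters. It was 166 bp upstream of the start site of Pdrg1, between start sites of Pal1 that were 180 and 349 bp away. The summits inside Mef2 were lower. One in a 5' untranslated exon, at 9942985 and 1779 bp downstream of the second start site, had 138 pooled, 56.3 in replicate 1 and 80.4 in replicate 2. One in an intron, at 9949165, had 70.1 pooled, 29.2 in replicate 1 and 58.2 in replicate 2, the widest gap between replicates in favour of replicate 2 among the 16 regions (ratio 1.99), and it was thresholded in neither replicate.

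nau encodes the fly member of the MyoD family of myogenic factors. The gene (FBgn0002922, 3R:23712814-23718357, minus strand) stood next to a cluster of summits on its upstream side. The tallest, at 23723820, lay 5463 bp upstream of the nau start site and had 184 pooled, 75.1 in replicate 1 and 111 in replicate 2. The next, at 23722970 and 4613 bp upstream, had 159 pooled, 75.8 in replicate 1 and 86.8 in replicate 2. These summits were 850 bp apart and flanked the start site of CG10365, at 489 bp downstream and 361 bp upstream of it. A further summit at 23726935, in an intron of CG10365 and 8578 bp upstream of nau, had 93.9 pooled, 46.3 in replicate 1 and 47.9 in replicate 2. The summit inside nau itself, in an intron at 23714153, was the lowest of the 4 at 74.5 pooled, 25.8 in replicate 1 and 40.2 in replicate 2. It was thresholded in replicate 2 but not in replicate 1. A start site of another gene was nearer to it, at 2626 bp, than that of nau, at 4204 bp. Of the 327 protein-coding genes with 4 summits in reach, the nearest to nau in summed signal (511) that shared no summit with it were cnc (506), prage (504) and lab (520), over 1 pooled list.

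how encodes a STAR-family RNA-binding protein needed in muscle and tendon cells. None of its 4 summits (FBgn0264491, 3R:22042191-22079321, plus strand) had a pooled signal above 101, and none was within 500 bp of its start site. The intronic summits at 22049310 and 22053997, 7119 and 11806 bp downstream of the start site, had 101 and 84.8 in the pooled list. The first had 48.6 in replicate 1 and 53.5 in replicate 2. The second, whose sequence holds the NF-Y consensus, had 56.4 in replicate 1 and 31.4 in replicate 2, the lowest ratio of replicate 2 to replicate 1 among the 16 regions (0.557), and was thresholded in replicate 1 alone. The upstream summit at 22039645, 2546 bp from the start site, had 79.9 pooled, 37.0 in replicate 1 and 43.4 in replicate 2, and was thresholded in replicate 2 alone. The last summit, at 22049515 with a pooled signal of 9.88, overlapped the peak at 22049310 and shared its entry in each replicate.

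**Figure D3:**
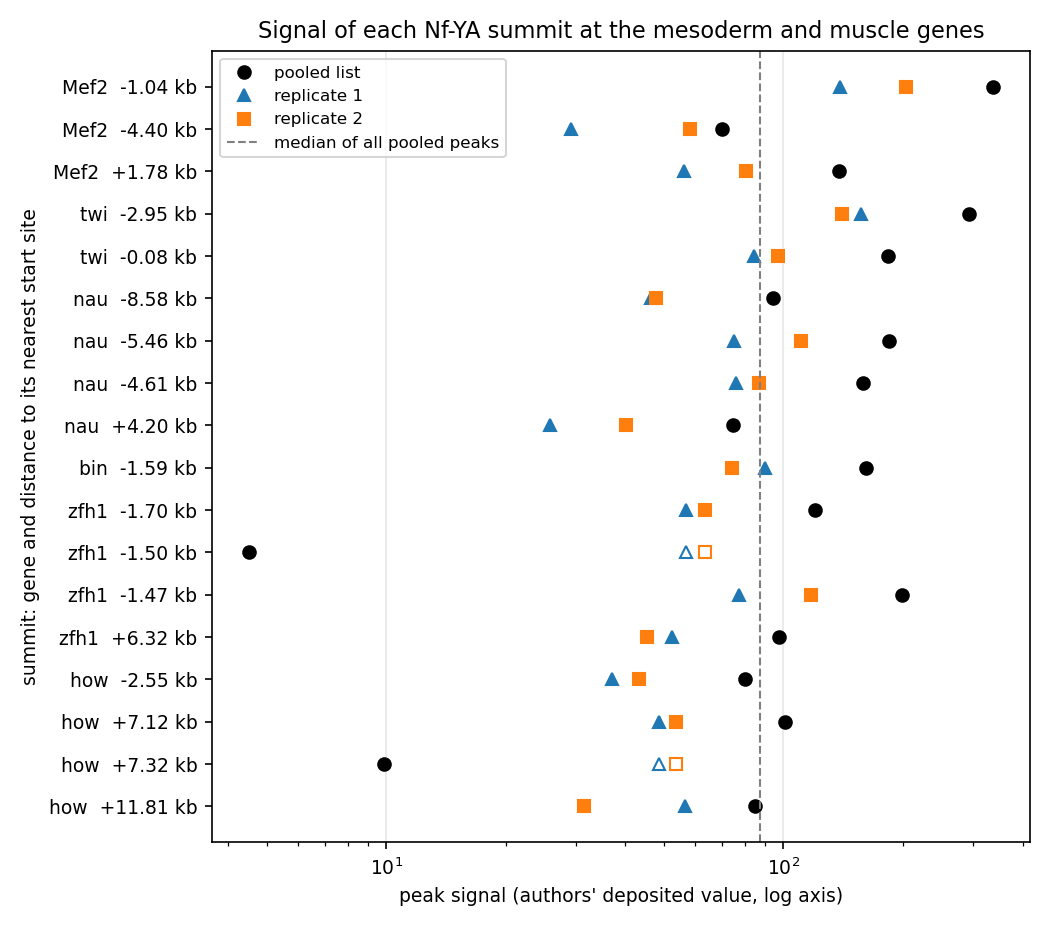
Peak signal (log axis, the authors' deposited value) of each of the 18 summits in the pooled list (black), replicate 1 (blue) and replicate 2 (orange), by gene and distance to its nearest start site. The dashed line is the median of all pooled peaks (87.4), and open symbols mark the replicate entries that the summits of signal 4.52 and 9.88 share with a taller neighbour.

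lmd and htl had no summit of the pooled list in reach. lmd encodes a zinc finger factor of fusion-competent myoblasts (FBgn0039039, 3R:23021222-23026713, minus strand), and its nearest summit was 27442 bp from the gene, at p53 (signal 85.8). Its tallest ranked entry in reach had 18.0 in replicate 1 (rank 16276) and 32.3 in replicate 2 (rank 4383) and lay 2007 bp upstream in replicate 1 and 1985 bp upstream in replicate 2. For htl (FBgn0010389, 3R:18045216-18052984, minus strand) the nearest pooled summit was 68793 bp away, 284 bp from a start site of sr (signal 285). Its tallest ranked entry had 22.2 in replicate 1 (rank 8268) and 43.3 in replicate 2 (rank 2233). The entry in replicate 2, at 18057672 and 4688 bp upstream, passed the threshold in that replicate's own list, while no ranked entry of replicate 1 overlapped it.

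Entries of the ranked lists, which run far below the threshold, were also looked up at the start sites. Of the 15 annotated start sites of the 8 genes, 13 had no pooled summit within 500 bp. Ranked entries stood near 11 of these in each replicate, with signals of 7.01 to 25.1 in replicate 1 and 7.55 to 29.1 in replicate 2. Of the 3 Mef2 start sites, the one at 9944764 had the tallest entry, with 25.1 in replicate 1 and 29.0 in replicate 2. The others had 21.4 and 11.8 in replicate 1 and 11.4 and 15.9 in replicate 2. By its tallest start-site entry, Mef2 was matched or exceeded by 17.8% of protein-coding genes in replicate 1 and 18.4% in replicate 2. In replicate 1 this share was 22.6% for zfh1, 42.3% for htl, 44.4% for how, 63.5% for bin, 66.5% for nau and 68.2% for lmd. In replicate 2 it was 18.3% for lmd, 19.0% for htl, 33.4% for nau, 44.1% for zfh1 and 51.5% for bin, while how had no entry there. The order of these genes thus differed between the replicates, with lmd the lowest of the 8 in replicate 1 and next to Mef2 and htl in replicate 2. From 250 bp upstream to 50 bp downstream, 8 of the 15 start sites held CCAAT on either strand (53.3%), as did 45.6% of 19607 start sites of all protein-coding genes. The full consensus was at 0 of the 15 and at 3.44% of all. The 2 twi start sites with a summit held no CCAAT in this window, while a start site of htl without one held it 4 times.

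Most of these summits overlapped peaks that passed the threshold in the replicates. Of the 18 summits, 13 (72.2%) overlapped a thresholded peak in both replicates, against 40.5% of all pooled summits. Counted as 16 separate regions, 11 were thresholded in both replicates, 1 in replicate 1 alone, 2 in replicate 2 alone and 2 in neither. The signal in replicate 2 was 1.15 times that in replicate 1 at the median, with a range of 0.557 to 1.99, and 1.29 times at the median over the 3330 pooled peaks that both ranked lists matched. Spearman's rho between the replicates was 0.806 across the 16 regions and 0.655 across the 3330 peaks, as a description of peaks that share libraries. Overlapping peaks were reduced to 1 region at the members, but were all kept in the 3330 and in the full pooled list. The median signal of the 16 regions was 129, and 12 of them were above the median of all pooled peaks, 87.4. The median of all 18 summits was 110.

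The motifs of mesodermal factors were sought at the same summits. The E-box CANNTG, the site class of Twist and other basic helix-loop-helix proteins, was within 50 bp of 7 of 18 summits (38.9%), against 36.4% of all summits. In the windows 500 bp to either side it was at 11 of 36 at the members (30.6%), against 40.9% at all summits. Of the forms that Twist prefers, CATATG was at 0 and CACATG at 1, the summit of signal 4.52 at zfh1, against 3.79% and 4.11% of all summits; both are also E-boxes. The Mef2 site was at 0 of 18 and at 3 of the members' 36 flanking windows (8.33%), against 5.84% of all summits. The forkhead core TAAACA was at 3 of 18 (16.7%) and at the same share of the members' flanking windows, 6 of 36, against 13.5% of all summits. The Tinman site CAAGTG, which is itself an E-box, was at 1 (5.56%), against 5.69%, and at 3 of 36 flanking windows (8.33%). The GATA site GATAAG was at 1 summit of nau, against 4.98% of all summits, and the GAGA site GAGAG at 1 summit of twi, against 13.8%, with 4 of 36 flanking windows (11.1%). The TATA box TATAAA was at 1 summit, the tallest of zfh1, against 18.3%, with 8 of 36 flanking windows (22.2%). The Zelda site CAGGTAG was at 0, against 0.537%. All motifs were sought on both strands, and a match marks letters, not an occupied site.

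Related genes of the mesoderm and muscle programmes were counted by role. In 6 lists of 83 further genes, 28 (33.7%) had a summit within 500 bp of a start site, against 12.5% of all protein-coding genes, and 61 (73.5%) had one in reach, against 51.6%. Start-site summits were at 8 of 14 genes of mesoderm specification (57.1%) and 10 of 15 muscle identity genes (66.7%). They were at 2 of 6 genes of fibroblast growth factor signalling, 2 of 8 of muscle differentiation, 3 of 13 of myoblast fusion and 3 of 27 of the sarcomere and muscle attachment (11.1%). The lists were chosen with earlier results of these data known, so their shares are not independent of these peaks. No test was made of these shares or of their differences. The median gene length of each list, from 3331 to 26166 bp, was above the 2166 bp of all protein-coding genes.

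Among the specification genes, tin, the homeobox gene of the heart and visceral mesoderm, had a summit 161 bp upstream of a start site with 350 pooled, 172 in replicate 1 and 182 in replicate 2. The T-box genes Doc3 (424 pooled, 224 and 201 in replicates 1 and 2) and Doc1 (336, 181 and 153) also had summits upstream of a start site, at 261 and 148 bp. Among muscle identity genes the LIM-homeobox gene ap reached 689 pooled, with 386 in replicate 1 and 296 in replicate 2. The ladybird homeobox gene lbe reached 627, with 332 in replicate 1 and 292 in replicate 2, at 8 bp upstream of a start site, and its neighbour lbl reached 314, with 152 and 156. These 6 were named because they were the 3 tallest start-site summits of each list, so their height follows from that choice. All 6 were thresholded in both replicates, and each was taller than the twi start-site summit, which the choice of the tallest also favours.

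The specification and identity lists also held low start-site summits, down to 93.0 at slp1 and 63.8 at Poxm, the lowest of each list, named here after their values were seen. In fibroblast growth factor signalling, stumps, the adaptor that acts downstream of the htl receptor, had 72.2 pooled, 18.3 in replicate 1 and 53.1 in replicate 2. The gene bnl of the same list had 70.0 pooled, 28.0 in replicate 1 and 41.9 in replicate 2. The other genes of that list, ths, pyr, btl and csw, had no start-site summit. Among differentiation genes sr, a regulator of tendon cells, had 285 and was thresholded in both replicates, while Pdp1 had 84.7 pooled, 39.5 in replicate 1 and 44.9 in replicate 2. The fusion genes WASp (84.2), Vrp1 (65.9) and rols (43.6), of which WASp and Vrp1 act in actin assembly, were all below the median of pooled peaks. Of the sarcomere genes, the titin-like gene sls had 143 pooled, 57.3 in replicate 1 and 85.2 in replicate 2, and was thresholded in both, while the tropomyosin gene Tm2 (61.6) and the actin gene Act87E (30.5) were thresholded in neither.

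**Figure D4:**
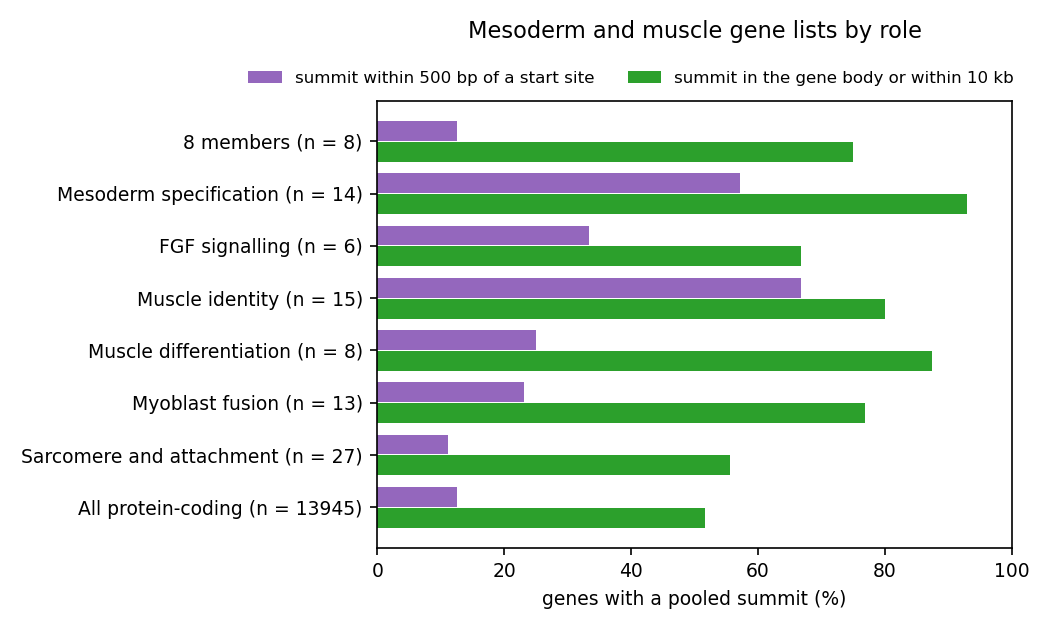
Share of genes (horizontal axis, percent) with a pooled summit within 500 bp of a start site (purple) and in the gene body or within 10 kb (green), for the 8 genes, 6 lists of related genes and all protein-coding genes. Mesoderm specification and muscle identity genes reached 57.1% and 66.7% at start sites, while the 8 genes and all protein-coding genes were both at 12.5%. The genes and lists were chosen with earlier results of these data known.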

How the data were processed

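Per the labels, sonication gave fragments of 200 to 800 bp, and an anti-GFP antibody was used. The authors deposited peak lists on dm6 for each replicate and for both pooled, per the file headers, which also list inputs other than the replicates' alignments without saying what they are; a control was not analysed here. The aligner, peak caller and versions are not given in the sources used here. The values used are the authors' deposited peak signal, on an unstated scale, which served only to describe and rank peaks. The depth is unknown. The 16 value columns of unnamed inputs in the pooled ranked lists were not used.

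Genes and start sites came from Ensembl release 115 (BDGP6.54) without transposable elements, and sequence from RefSeq. A replicate's value is its tallest ranked entry that shares at least 1 bp with the pooled peak. Of the symbols in the wider lists, 2 were not matched. The rule for named genes took the 8 genes, neighbours with a start site within 500 bp of a summit, the 3 tallest start-site summits of each wider list, and the 3 genes most like the member with the most summits; of 3 members with equal counts, the one with the highest summed signal was used. The members and lists were chosen with earlier results of these data known. There was 1 group, so no conditions were compared and no p-value was computed. The counting code was tested on planted summits and found 100 of 100 near start sites and 200 of 200 in reach, on 13945 genes. Python 3.11.15, scipy 1.17.1 and matplotlib 3.10.9 were used.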

Additional observations from a re-analysis of the deposited data

How the results depend on the processing

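The count of 18 summits in reach was 19 in the conservative list, 12 in the upper 50% by signal, 16 with overlapping peaks merged, 16 with a reach of 5 kb and 24 with 20 kb, and it was 9 in the gene bodies alone. In the own list of a single replicate it was 14 for either replicate. The 1 gene with a summit at a start site was twi in every list and at distances of 250 and 1000 bp. The count of 6 genes with a summit in reach was 5 in the gene bodies alone, where bin has none, 7 in the own list of replicate 2, where htl joined, and 6 under the other alternatives. The 13 summits thresholded in both replicates were 9 when the overlap had to cover 50% of the pooled peak. The share of all pooled summits under that rule is not given here, so the comparison with 40.5% holds for the 1 bp overlap alone. CCAAT was at 5 summits within 50 bp, 2 within 25 bp and 7 within 100 bp. Other motif counts also moved with the window: from 25 to 50 to 100 bp the E-box was at 2, 7 and 12 summits, the forkhead core at 2, 3 and 7, the Tinman site at 0, 1 and 4, GAGAG at 1, 1 and 5, and CATATG at 0, 0 and 2. Of the wider lists, 28 genes had a start-site summit, 17 in the upper 50% by signal, 19 within 250 bp and 20 in the own list of either replicate; 61 had a summit in reach, 22 in the gene bodies alone and 45 to 49 in the own list of a single replicate. These alternative counts stand without the shares of all summits or all protein-coding genes. They therefore do not show whether the differences from those shares hold at each setting. No paired analysis was possible because the series has 1 group. The unknown depth limits all statements on genes without a summit.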

Other observations

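The summit farthest from its gene within 10 kb was the nau summit 8578 bp from the gene. Between 10 and 20 kb from the gene bodies stood 6 more summits, at twi (16036 and 18738 bp, signal 104 and 99.7), bin (13022 and 14057 bp, signal 80.7 and 98.0), zfh1 (13802 bp, signal 108) and how (14616 bp, signal 66.1). None stood there at Mef2, nau, lmd or htl.

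Base composition differed widely among the summits of these genes. The 101 bases at a summit held 19.8% G or C at the nau summit 4613 bp upstream and 65.3% at the twi start-site summit, with a median of 37.6%, against 35.6% for all pooled summits. Peaks 330 bp wide, the most frequent width, made up 13 of the 18 (72.2%) and 90.5% of all pooled peaks. The 5 narrower peaks were the taller ones of Mef2, twi and zfh1 and the peak of bin, with widths of 131 bp at Mef2, 172 and 84 bp at twi, 126 bp at zfh1 and 87 bp at bin.

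Each replicate's own list held 1 region near these genes that the pooled thresholded list lacks. In replicate 1 this was an intronic twi peak at 2R:22998876 with a signal of 55.9, where replicate 2 had an entry of 20.3. In replicate 2 it was the htl peak with a signal of 43.3. The conservative list added a summit with a signal of 14.7 at 23727162 upstream of nau, in a peak that overlaps the pooled peak at 23726935.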
